A study of Mus musculus with 2 samples.

Results

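The nuclear genes of oxidative phosphorylation were followed across the cells of mouse spleen, in 1 control mouse and 1 mouse with sickle cell disease (SCD). They were chosen by symbol alone: every gene whose name starts with Nduf, Uqcr or Atp5, or with Cox and a digit from 4 to 8, plus Sdha, Sdhb, Sdhc, Sdhd and Cycs. This gave 96 genes (95 symbols, since Atp5o stands for 2 identifiers) among the 26124 genes of the count matrices. Of these, 45 belong to complex I (36 subunits, 8 assembly factors and Ndufb1-ps, which carries a pseudogene symbol and is annotated as a long noncoding RNA), 4 to complex II, 8 to complex III, 20 to complex IV (11 subunits, 8 tissue-restricted isoforms and the assembly factor Cox7a2l), 18 to complex V, and 1 is cytochrome c. In at least 1 library 91 of the 96 reached 20 unique molecular identifiers (UMIs, 1 per captured transcript), while Cox7b2, Cox8b, Cox8c, Ndufa4l2 and the second Atp5o identifier did not.

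Dendritic cells (DCs) were enriched from each spleen by negative selection on magnetic beads, and the suspension was run through droplet-based single-cell RNA sequencing of transcript 3′ ends. The control mouse, called wild-type, was homozygous for Hbatm1Paz, heterozygous for Hbbtm1Tow and hemizygous for Tg(HBA-HBBs)41Paz. By its label it therefore shares the deleted mouse alpha globin locus and the human sickle transgene with the SCD mouse. The SCD mouse of the Berkeley model was homozygous for all of them. Both were untreated, were 12 to 16 weeks old and came from a mixed background, and the libraries were built in parallel. With 1 mouse per group no test was possible: no difference has a replicate check, and all intervals in brackets are 95% intervals for counting error only.

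Oxidative phosphorylation makes ATP in the inner mitochondrial membrane. Complexes I and II pass electrons from NADH and succinate to ubiquinone, complex III passes them on to cytochrome c, complex IV hands them to oxygen, and complex V, the ATP synthase, uses the resulting proton gradient. Mitochondrial DNA encodes some subunits of complexes I, III, IV and V (the mt- genes), and the nucleus encodes all others, the whole of complex II and cytochrome c. Macrophages, monocytes and DCs hold many mitochondria, while neutrophils lose most of theirs as they mature in favour of granules and live largely on glycolysis.

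In all 10845 cells with 97880318 UMIs were recorded for wild-type and 13447 cells with 189688217 UMIs for SCD. After filtering 9423 and 10635 cells were kept, at medians of 4884 and 8282 UMIs per cell, and 22 barcodes occurred among the kept cells of both libraries. Clusters built without the 96 genes and the mt- genes were named from markers as neutrophil-like (4361 wild-type and 7163 SCD cells), monocyte-like (1087 and 1447), conventional DC-like (2722 and 765), plasmacytoid DC-like (pDC; 790 and 620), red pulp macrophage-like (308 and 172) and erythroid-like (59 and 79), and "-like" is left out below. B cells were not compared, since the wild-type library held 36. As a check of the genotypes, the mouse beta globin gene Hbb-bs was at 2293 counts per 1000000 UMIs (CPM) in wild-type and 20.8 CPM in SCD. The mouse alpha globin gene Hba-a1, which both labels give as deleted, was counted in the erythroid cells of both libraries, at 105801 and 104222 CPM. These counts go against a deleted gene in both libraries, and the source of the UMIs was not tested.

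Summed over all 96 genes, and among the 5 main classes (neutrophils, monocytes, conventional DCs, pDCs and red pulp macrophages), monocytes and pDCs gave the largest share of their UMIs to oxidative phosphorylation and neutrophils the smallest. In wild-type the genes took 2.12% of the UMIs of monocytes (2.12 to 2.13), 2.12% in pDCs (2.11 to 2.13), 1.81% in conventional DCs (1.80 to 1.81), 1.76% in red pulp macrophages (1.73 to 1.79) and 1.21% in neutrophils (1.20 to 1.21). In SCD the shares were 2.76% in monocytes (2.75 to 2.77), 2.28% in pDCs (2.27 to 2.29), 2.12% in red pulp macrophages (2.09 to 2.16), 2.04% in conventional DCs (2.03 to 2.05) and 1.22% in neutrophils (1.22 to 1.22). Wild-type monocytes and pDCs could not be told apart, and every neighbouring pair of the SCD order was separated beyond counting error. The few erythroid cells, described separately, lay below neutrophils in wild-type at 0.913% and between monocytes and pDCs in SCD at 2.55%. Red pulp macrophages were the shallowest class, with medians of 1386 and 1656 UMIs per cell against 9560 and 13338 in monocytes. With every cell thinned to 1000 UMIs, which left out 81 wild-type and 20 SCD macrophages, their shares were 1.91% and 2.42%, so they then stood above pDCs in SCD (2.29%) and above conventional DCs in wild-type (1.76%).

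Within neutrophils the share was highest at the earliest stage. Neutrophils were split by granule and cell cycle markers into promyelocyte-like (17 wild-type and 256 SCD cells), dividing (64 and 587), immature (502 and 4011) and mature cells (3737 and 2284). The promyelocyte-like cluster scored nearly as high on the cell cycle markers as on its own (0.959 against 1). The summed share was 1.89% and 1.98% in promyelocyte-like cells, 1.49% and 1.45% in dividing, 1.04% and 1.07% in immature, and 1.21% (1.20 to 1.21) and 0.986% (0.979 to 0.993) in mature cells. Immature and mature neutrophils thus stood in opposite order in the 2 libraries, but with cells thinned to 1000 UMIs mature lay above immature cells in both (1.23% against 1.02% in wild-type and 1.07% against 1.04% in SCD). Per cell the picture was simpler: a mean of 330 and 280 UMIs of these genes in dividing, 98.7 and 93.4 in immature and 29.5 and 33.2 in mature neutrophils, while the median depth per cell also dropped from 9234 and 8355 UMIs in immature to 2332 and 3121 in mature cells. Fewer transcripts per cell and less efficient capture cannot be told apart in these numbers.

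**Figure D1:**
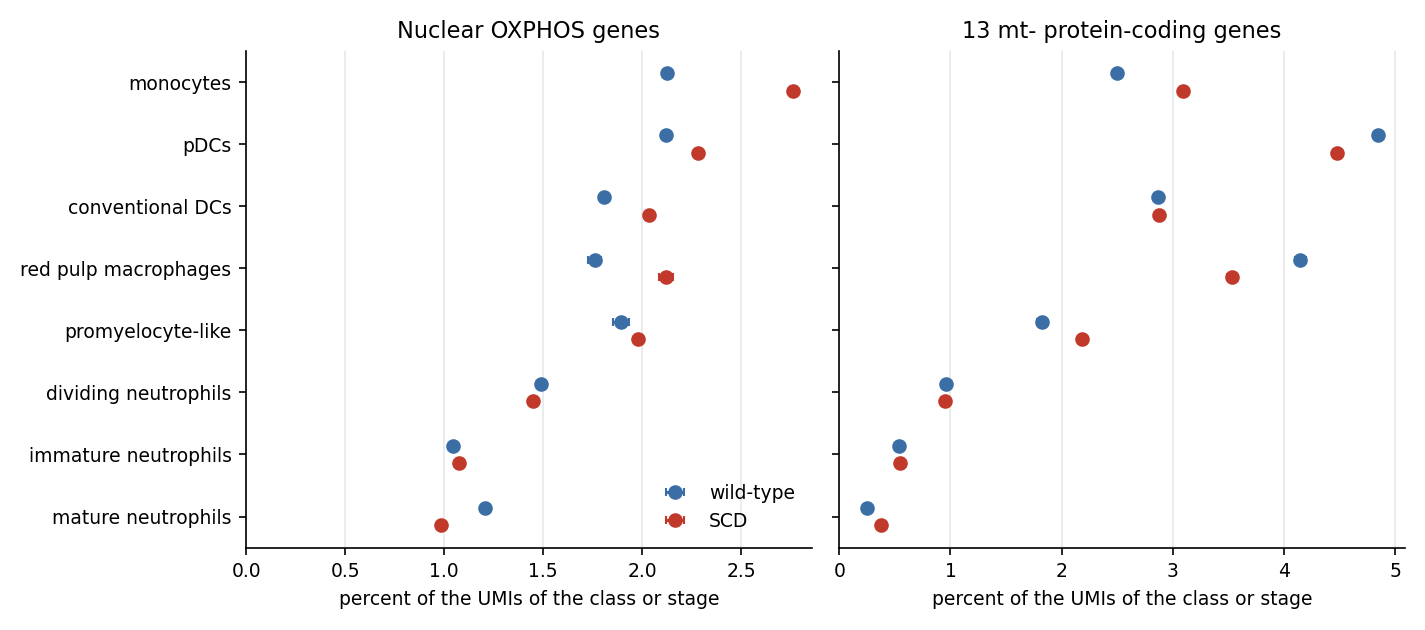
Summed nuclear OXPHOS genes (left) and the 13 mt- protein-coding genes (right) as percent of the UMIs of each main class and neutrophil stage, without erythroid and B cells, 1 point per library with its exact 95% Poisson interval. In the classes and stages shown the nuclear genes span 0.986% to 2.76%, whereas the mt- genes span 0.254% in wild-type mature neutrophils to 4.84% in wild-type pDCs.

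The mt- genes varied far more between classes than their nuclear partners. The 13 mt- protein-coding genes took 4.84% of wild-type and 4.47% of SCD UMIs in pDCs, 4.15% and 3.53% in red pulp macrophages, 2.87% and 2.88% in conventional DCs, 2.50% and 3.09% in monocytes, 0.534% and 0.547% in immature and 0.254% and 0.373% in mature neutrophils. For each UMI of a nuclear gene there were 2.28 and 1.96 mt- UMIs in pDCs, 2.36 and 1.67 in red pulp macrophages, 1.59 and 1.41 in conventional DCs, 1.18 and 1.12 in monocytes, 0.964 and 1.10 in promyelocyte-like cells, 0.646 and 0.655 in dividing, 0.512 and 0.510 in immature, and 0.210 and 0.378 in mature neutrophils. The ratio therefore dropped at each step of the neutrophil stages, in both libraries, and pDCs and monocytes with much the same nuclear share in wild-type differed in their mt- share.

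By complex, I, IV and V each took a larger share than complexes II and III and cytochrome c in every class and stage. In wild-type monocytes complex I took 0.639% of the UMIs, complex IV 0.609%, complex V 0.616%, complex III 0.206%, complex II 0.041% and cytochrome c 0.014%. In wild-type mature neutrophils the same complexes took 0.364%, 0.368%, 0.352%, 0.095%, 0.026% and 0.002%. Complex II took 0.053% of wild-type and 0.051% of SCD UMIs in red pulp macrophages, where Sdhc, a membrane anchor of succinate dehydrogenase, was at 158 and 157 CPM against 50.8 and 66.3 CPM in monocytes. Cytochrome c was at 140 and 186 CPM in monocytes and at 21.9 and 24.1 CPM in mature neutrophils.

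Counts of 3′ ends are not scaled to transcript length and depend on how well each end is captured, so each gene is compared with itself across classes. Cox4i1, the ubiquitous subunit 4 of cytochrome c oxidase, was among the 2 most abundant complex IV genes, at 1101 and 1361 CPM in monocytes, 974 and 983 in pDCs, 831 and 924 in conventional DCs, 698 and 1045 in red pulp macrophages, 470 and 466 in immature and 666 and 491 in mature neutrophils. Cox8a, a small subunit of the same enzyme, was at 649 and 963 CPM in monocytes and 814 and 638 in mature neutrophils. Atp5e, the epsilon subunit of ATP synthase, was at 771 and 924 CPM in monocytes and 733 and 485 in mature neutrophils, and Atp5l, a membrane subunit of the synthase, at 704 and 785 against 837 and 656 CPM. In complex III, Uqcrh, the hinge protein, was at 696 and 659 CPM in monocytes and 313 and 281 in mature neutrophils, and Uqcrq at 317 and 422 against 212 and 173 CPM. In complex I, Ndufb1-ps was at 511 and 643 CPM in monocytes and 350 and 259 in mature neutrophils, and Ndufa13 at 334 and 409 against 328 and 233 CPM. In complex II, Sdhb was at 162 and 238 CPM in monocytes and 49.3 and 33.9 in mature neutrophils, and Sdha at 97.6 and 97.3 against 78.6 and 49.8 CPM.

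Gene by gene, the class with the highest level was not the same throughout, as counted over the 4 main classes other than neutrophils and the 4 neutrophil stages, with erythroid and B cells left out. Among the 83 genes expressed in wild-type (20 UMIs and 50 CPM or more in at least 1 of these), 32 were highest in monocytes, 18 in promyelocyte-like cells, 14 in pDCs, 14 in red pulp macrophages, 4 in mature neutrophils and 1 in dividing neutrophils. Among the 81 expressed in SCD, 62 were highest in monocytes, 9 in red pulp macrophages, 5 in promyelocyte-like cells, 4 in pDCs and 1 in conventional DCs. The lowest level was in mature neutrophils for 40 and 58 genes and in immature neutrophils for 30 and 15. The median ratio of the highest to the lowest class was 3.08 in wild-type and 3.82 in SCD, over the 80 genes in each library that also reached 20 UMIs in their lowest class, which left out Cox6a2 in both libraries and Ndufs1 and Cox6b2 in wild-type. The widest among those 80 was Ndufa5, an accessory subunit of complex I, at 107 CPM in wild-type promyelocyte-like cells, 16.0 in immature and 3.83 in mature neutrophils, a ratio of 28.0; it was named after its values were seen.

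Complex IV has subunits with paired isoforms, and 1 of the restricted ones marked a single class. Cox6a2, the isoform of subunit 6a known from heart and skeletal muscle (chromosome 7, 128205435 to 128206387, GRCm38), was at 1097 CPM (1075 to 1119.5) in wild-type and 1135 CPM (1109 to 1162) in SCD pDCs, and 86.8% and 87.4% of pDCs held at least 1 of its UMIs. It was at 7.67 and 19.7 CPM in conventional DCs, 5.86 and 14.7 in red pulp macrophages (on 4 and 10 UMIs), 1.53 and 1.91 in monocytes and 1.69 and 1.70 in neutrophils, of which 0.60% and 1.33% held a UMI at median depths of 2454 and 6943, against 10946 and 9124 in pDCs. Free RNA was not corrected for, so these low values are not read as expression. It is known as a pDC gene and stood on the marker list, but was left out of the naming. The ubiquitous partner Cox6a1 was at 302 and 291 CPM in pDCs, 391 and 463 in monocytes, 306 and 313 in conventional DCs, 394 and 364 in red pulp macrophages, and 281 and 168 in mature neutrophils. In pDCs Cox6a2 therefore exceeded Cox6a1 in UMI count, although their 3′ ends may be captured unequally.

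**Figure D2:**
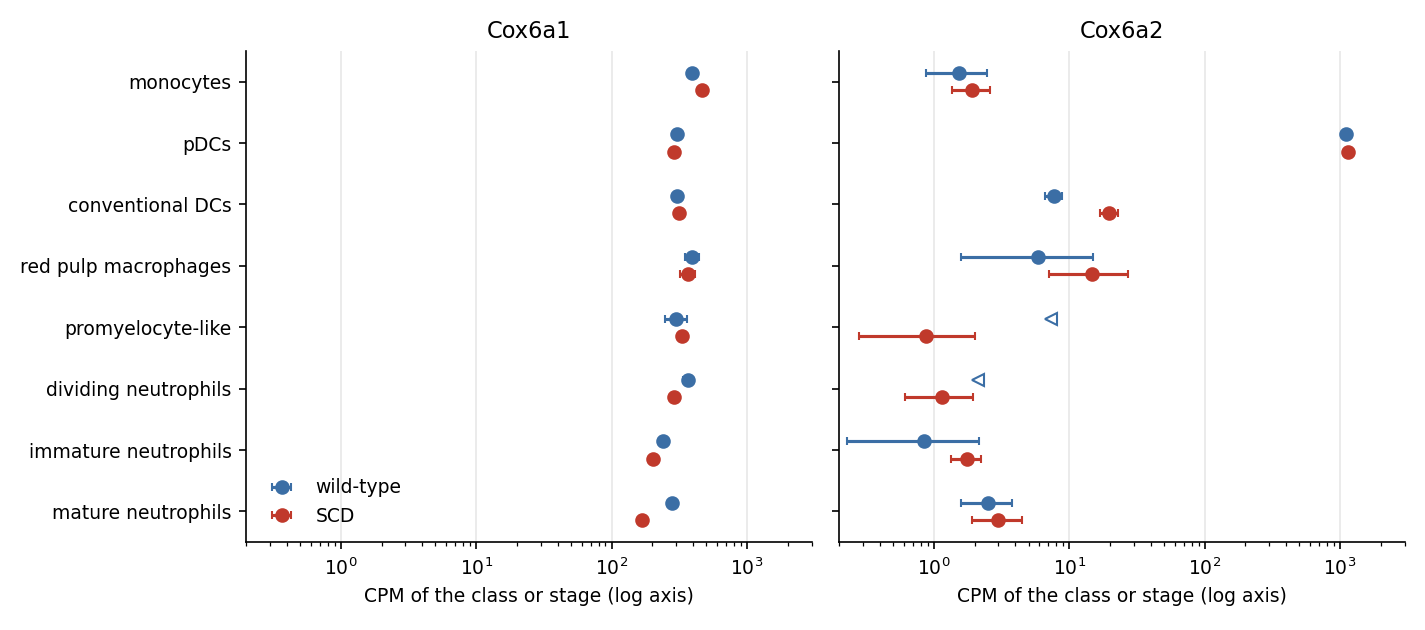
CPM of Cox6a1 and Cox6a2 in the classes and stages shown, on a log axis, 1 point per library with its exact 95% Poisson interval, or an open triangle at the limit that a count of 0 allows (3 counts). Cox6a1 lies between 168 and 463 CPM in all of them, and Cox6a2 is at 1097 and 1135 CPM in pDCs and at most 19.7 CPM in the others.

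The other restricted isoforms were low or not seen. Cox6b2, known from testis, was at 101 and 187 CPM in erythroid cells, at 58.5 and 50.2 CPM in promyelocyte-like cells and at or below 29.1 CPM in the other classes and stages, against 227 to 657 CPM for Cox6b1 in the same classes. Cox4i2 reached at most 2.93 CPM and Cox7a1 at most 6.19 CPM in any class. Cox7b2, Cox8b, Cox8c and Ndufa4l2 had no UMI in either library, against 87.2 to 458 CPM for Cox7b, 343 to 963 CPM for Cox8a and 92.1 to 694 CPM for Ndufa4. Cox7a2, the ubiquitous subunit 7a, was at 328 and 494 CPM in monocytes and 264 and 212 in mature neutrophils. Cox7a2l, which joins complexes III and IV in supercomplexes, was at 443 and 386 CPM in monocytes, 440 and 464 in conventional DCs and 102 and 114 in immature neutrophils.

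SCD was then compared with wild-type class by class, as log2 ratios of CPM after adding 5 CPM to both. Because a class can be scaled by a few abundant transcripts, the median over the genes is given beside that over all expressed genes of the class, and at least 1.5-fold is counted as a difference. In all 5 main classes the nuclear OXPHOS genes lay above the bulk of genes: by 0.48 in monocytes, 0.29 in conventional DCs, 0.15 in pDCs, 0.57 in red pulp macrophages and 0.52 in pooled neutrophils on the log2 scale. Within dividing, immature and mature neutrophils, whose proportions differed between the libraries, it was 0.05, 0.09 and 0.07. All medians in this account are on that scale.

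In monocytes the median of each of the 5 complexes was above 0. The median over the 80 expressed genes was 0.38 (0.34 to 0.42) against -0.10 over 3420 genes, 76 had a ratio above 0, and 6 (7.5%) were at least 1.5-fold higher where 6.84% of all genes were; none was that much lower, where 16.1% of all genes were. The count of 6 higher rose to 23 (28.75%) under median-of-ratios scaling, where 9.503% of all genes were higher, to 11 (13.6%) without the 50 highest genes (7.36%) and to 24 (30%) with no upper limit on genes per cell (13.2%), and dropped to 2 (2.50%) with a pseudocount of 20 CPM (5.79%). Cox5b, a nuclear subunit around the core of cytochrome c oxidase, was at 363 CPM (351 to 374) in wild-type and 631 (620 to 642) in SCD, the largest ratio at 0.79. Ndufa12, an accessory subunit of complex I, was at 60.2 and 99.8 CPM (0.69), and Atp5j, in the stalk of ATP synthase, at 295 and 457 CPM (0.62). Cox7a2l was lowest, at 443 and 386 CPM (-0.20), with the complex I assembly factor Ndufaf7 at 52.3 and 48.4 CPM (-0.10) and Uqcrh at 696 and 659 CPM (-0.08). By complex the medians were 0.38 in I, 0.33 in II, 0.32 in III, 0.49 in IV and 0.42 in V.

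Cell state also differed between the libraries, and its part in this difference was not tested. The monocyte class held a dividing cluster with 5.15% of wild-type and 35.5% of SCD monocytes, and a cluster led by Ace and Cd300e with 39.1% and 4.08%. Of 19 expressed cell cycle genes 18 were at least 1.5-fold higher in SCD monocytes, where 6.84% of all genes were, with a median of 1.84. Within the largest monocyte cluster (606 wild-type and 875 SCD cells) the median over the OXPHOS genes was 0.27, in the dividing cluster (56 and 513 cells) 0.07, and in the cluster of Ace and Cd300e (425 and 59 cells) -0.01. The all-gene medians there were -0.07, -0.07 and -0.06. The difference within clusters was therefore smaller than that of the class.

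In conventional DCs the median over 77 expressed genes was 0.18 (0.16 to 0.21) against -0.10 over all genes, with 73 above 0. It was 0.29 under median-of-ratios scaling, 0.10 with no upper limit on genes per cell, 0.096 with total count normalization before clustering and 0.093 without called doublets. None of the 77 was 1.5-fold lower or higher, where 12.7% and 4.2% of all genes were. Sdhb, the iron-sulfur subunit of succinate dehydrogenase, was at 87.8 and 125 CPM (0.49), followed by Cox7b at 275 and 357 CPM (0.37) and the complex I assembly factor Ndufaf8 at 65.7 and 86.5 CPM (0.37). Sdha, the catalytic flavoprotein of the same enzyme, was lowest at 110 and 96.0 CPM (-0.18), then Ndufa3 at 246 and 224 CPM (-0.13) and Ndufs3 at 56.1 and 53.5 CPM (-0.06). The clusters that made up the class differed between the libraries: the largest in wild-type, led by Adam23 and Asb2, held 50.6% of wild-type and 27.5% of SCD cells, and that with Xcr1 and Clec9a held 5.99% and 29.3%. Within these the median was 0.15 and -0.09, and it was 0.08 in the cluster of Ccr7 and Fscn1 and 0.22 in that of Cd209a. The all-gene medians there were -0.045, -0.055, -0.073 and -0.032, so in the cluster of Xcr1 and Clec9a the OXPHOS genes lay below the bulk.

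In pDCs the median over 80 expressed genes was 0.12 (0.08 to 0.15) against -0.04, with 67 above 0 and none past 1.5-fold, where 3.14% of all genes were lower and 4.18% higher. It lay between 0.032 and 0.054 with no upper limit on genes, without the mitochondrial and ribosomal filter, without doublets, with total count normalization before clustering, and with the OXPHOS and mt- genes in the clustering. Sdhb was again highest at 130 and 185 CPM (0.49), followed by Ndufa8 at 90.5 and 121 CPM (0.40) and Cox5a at 304 and 400 CPM (0.39). Sdha was lowest at 128 and 114 CPM (-0.16), then the core complex I subunit Ndufs7 at 147 and 134 CPM (-0.13) and Cox7a2l at 396 and 368 CPM (-0.10). Within the main pDC cluster (650 and 402 cells) the median was 0.04, and within the second (114 and 216 cells), which also held more cell cycle UMIs in SCD (0.606% against 0.18%), it was 0.24. Of 13 expressed cell cycle genes, all 13 were at least 1.5-fold higher in SCD pDCs.

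Red pulp macrophages, the cells that clear red blood cells and recycle their iron, gave the largest number of genes past 1.5-fold among the 5 main classes, on few UMIs (682370 and 679413 in all). The median over 78 expressed genes was 0.30 (0.18 to 0.43) against -0.27 over all genes. Of these, 17 were at least 1.5-fold higher, 21.8% against 8.82% of all genes, and none was lower against 27.1%. The 17 became 39 (50%) under median-of-ratios scaling, where the median was 0.59 and 16.9% of all genes were higher, and 29 (36.25%) without the 50 highest genes, where 13.8% of all genes were higher and pooled neutrophils had more (32). Ndufa11 was at 51.3 CPM (35.7 to 71.3) and 134 CPM (108 to 164), a ratio of 1.30, on 35 and 91 UMIs. Cox5b was at 185 and 411 CPM (1.13), and Ndufs3, a core subunit of complex I, at 39.6 and 88.3 CPM (1.07). The lowest were Sdha at 177 and 124 CPM (-0.50), Ndufa7 at 314 and 240 CPM (-0.38) and Sdhd, a membrane anchor of complex II, at 116 and 88.3 CPM (-0.37). By complex the medians were 0.28 in I, -0.19 in II, 0.58 in III, 0.30 in IV and 0.31 in V. Cell cycle genes were higher in SCD in this class too, 8 of 9 past 1.5-fold, and their part in the result was not tested.

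The subunits of complex II had different ratios. Set side by side for monocytes, conventional DCs, pDCs and red pulp macrophages, which come from the same 2 mice, the ratio of Sdhb was 0.54, 0.49, 0.49 and 0.78, and that of Sdha -0.00, -0.18, -0.16 and -0.50. Sdhd was at 0.31, 0.24, 0.25 and -0.37. Sdhc lay between Sdhb and Sdha, at 0.35 in monocytes, 0.16 in pDCs and -0.01 in red pulp macrophages, and was under the expression limit in conventional DCs at 36.6 and 44.5 CPM. Uqcrh lay at -0.08, -0.06, -0.04 and -0.14, whereas its complex III partner Uqcrq lay at 0.41, 0.18, 0.03 and 0.31. Relative to the all-gene median of each class, Sdhb lay at 0.64, 0.59, 0.53 and 1.05, Sdha at 0.09, -0.08, -0.12 and -0.23, and Uqcrh at 0.02, 0.04, -0.01 and 0.13, so Uqcrh stayed with the bulk of genes and the direction of Sdha in monocytes depended on the scale.

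**Figure D3:**
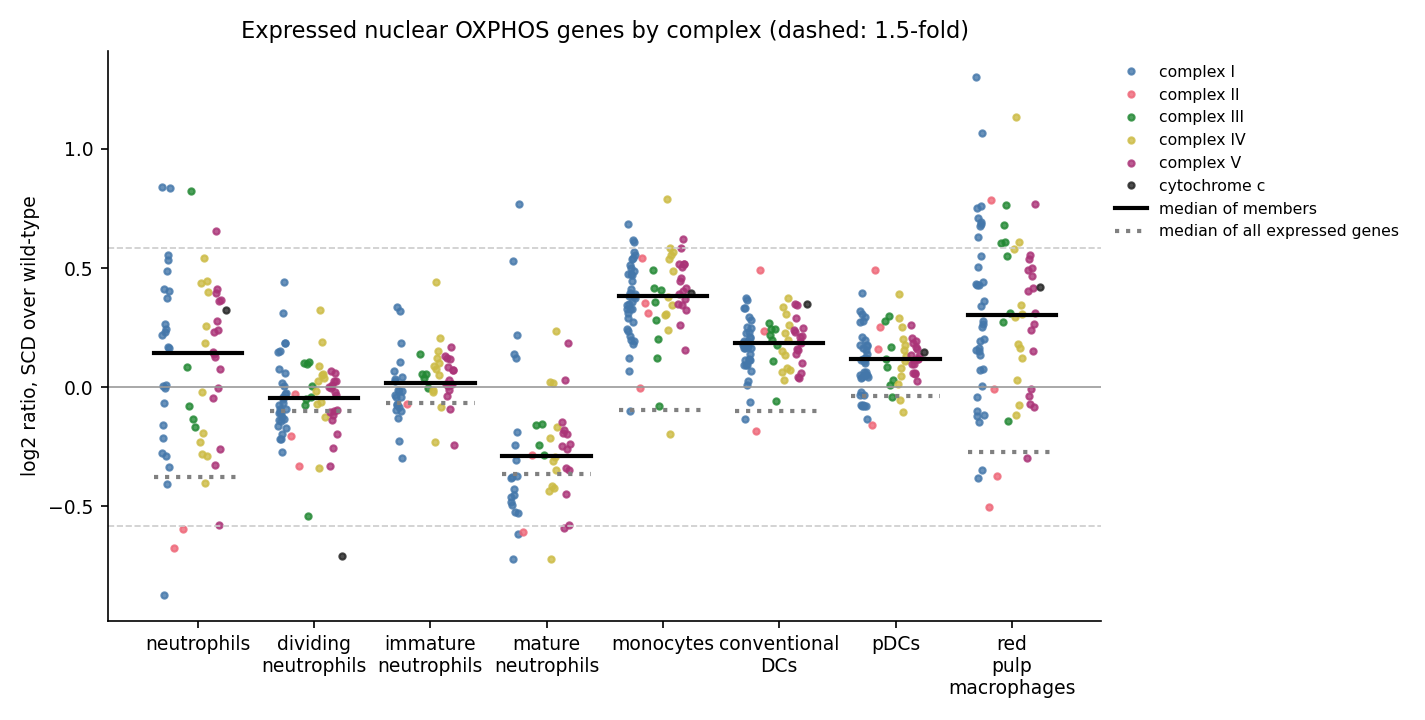
Log2 ratio of CPM (SCD over wild-type, pseudocount 5 CPM) of each expressed nuclear OXPHOS gene by complex, class and neutrophil stage, 1 point per gene, with 1.5-fold marked by dashed lines. Monocytes lie mostly above 0, immature neutrophils around 0 (median 0.02), and mature neutrophils below it (median -0.29, but 0.08 under median-of-ratios scaling and 0.08 without the 50 highest genes).

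Erythroid cells gave the widest difference and the least secure. The median over 80 expressed genes was 1.60 against 0.97 over all genes, and 77 were at least 1.5-fold higher, where 64.8% of all genes were higher and 9.83% lower, and none of the 80 was lower. The 50 highest genes of the class held 59.7% of its UMIs in wild-type and 32.4% in SCD. The beta globin gene Hbb-bs was at 273028 CPM in wild-type and 2593 in SCD, and Hbb-bt at 79528 and 376 CPM. With these UMIs missing from the SCD total, the CPM of all other genes there are scaled up. Also, 20 of 20 cell cycle genes were higher. The parts of the missing beta globin and of the maturity of the 59 and 79 cells in the result were not tested. Without the upper limit on genes per cell the class held 257 and 721 cells and the median was -0.01, and without the mitochondrial and ribosomal filter it held 225 and 411 cells and the median was -0.08. The direction therefore depended on which cells were kept.

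Pooled neutrophils gave a summed share of 1.21% in wild-type and 1.22% in SCD, a ratio of 1.01 (1.01 to 1.02), or 1.22% and 1.12% when each cell was thinned to 1000 UMIs. The median over 62 expressed genes was 0.14 (-0.02 to 0.25) against -0.38 over all genes, but -0.01 when each cell weighed the same. Of the 62, 3 were at least 1.5-fold lower, where 37.7% of all genes were, and 4 were higher, where 7.85% were. These counts became 0 lower and 27 higher (43.5%) under median-of-ratios scaling, with a median of 0.53, where 20.4% of all genes were lower and 20.4% higher. Without the 50 highest genes they were 0 lower and 32 higher (41.6%), where 18.4% and 21.5% of all genes were. The lower ones were Ndufa7 at 276 and 149 CPM (-0.87), Sdha at 63.7 and 37.96 CPM (-0.68) and Sdhd at 89.4 and 57.5 CPM (-0.60). The highest were Ndufa11 at 41.5 and 78.2 CPM (0.84), Ndufv3 at 105 and 191 CPM (0.84) and Uqcrb, a small subunit of complex III, at 70.8 and 129 CPM (0.82). Immature cells made up 11.5% of wild-type and 56.0% of SCD neutrophils and mature cells 85.7% and 31.9%, so these pooled values mix the stages in different amounts.

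Within a stage most of these differences were small. In immature neutrophils the median over 56 expressed genes was 0.02 (-0.01 to 0.06), none was past 1.5-fold, and the background was 0.519% lower and 0.519% higher. There Ndufa7 was at 151 and 143 CPM (-0.07), Sdhd at 52.0 and 49.3 (-0.07), Ndufa11 at 64.8 and 66.5 (0.03), Ndufv3 at 185 and 183 (-0.01) and Uqcrb at 93.2 and 95.7 CPM (0.04). In dividing neutrophils the median over 72 genes was -0.05 (0.05 under median-of-ratios scaling and 0.02 without the 50 highest genes). Cytochrome c, at 123 and 73.7 CPM (-0.71), was the 1 gene past 1.5-fold lower there and none was higher, where 1.97% of all genes were lower and 0.376% higher.

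Mature neutrophils differed more. The median over 52 expressed genes was -0.29 (-0.38 to -0.21), or 0.08 under median-of-ratios scaling and 0.08 without the 50 highest genes, and the all-gene median was -0.36, so the OXPHOS genes lay 0.07 above the bulk. There were 5 genes at least 1.5-fold lower, 9.62% of the 52 against 27.1% of all genes: Cox6a1 at 281 and 168 CPM (-0.72), Ndufa7 at 374 and 225 (-0.72), the complex I subunit Ndufs6 (-0.62), Sdha at 78.6 and 49.8 (-0.61) and Atp5e at 733 and 485 CPM (-0.59). Ndufv3, at 32.7 and 59.2 CPM (0.77), was the 1 gene higher, where 4.45% of all genes were. The count lower was 0 under median-of-ratios scaling, without the 50 highest genes and without called doublets, and 12 with at least 1000 genes per cell, and the count higher was 3, 5, 0 and 1 in these settings. Of all genes 7.59%, 8.84%, 13.3% and 40.7% were lower and 9.94%, 9.84%, 3.76% and 5.34% higher there. The mature cells came from different sub-clusters in the 2 libraries. In that led by Il1b and Fos (1979 wild-type and 706 SCD cells) the median was 0.03, in that led by Retnlg and Ccl6 (67 and 1237 cells) 0.09, and in that led by interferon-induced genes (273 and 251 cells) -0.30 beside an all-gene median of -0.43. Across the first 2 of these the summed share in wild-type was 1.26% and 0.828%, a wider gap than between the libraries within either (1.32% and 0.877% in SCD). Mature sub-clusters led by Fgl2 and Dennd4a (1299 wild-type and 42 SCD cells) and by Cxcl2 and Clec4n (119 and 48) held under 50 SCD cells and were not compared.

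The mt- genes did not follow their nuclear partners in mature neutrophils. Their summed share was 0.254% in wild-type and 0.373% in SCD, a ratio of 1.47 (1.44 to 1.49), while that of the nuclear genes was 0.817 (0.810 to 0.825). Of the mt- genes, mt-Co1, the catalytic subunit of complex IV, was at 628 and 1101 CPM (0.81), mt-Co2 at 335 and 529 CPM (0.65), mt-Co3 at 551 and 749 CPM (0.44), and mt-Atp6, of complex V, at 364 and 524 CPM (0.52). In immature neutrophils the mt- ratio was 1.03 (1.01 to 1.04) and in dividing neutrophils 0.984 (0.967 to 1.002). In pooled neutrophils the log2 ratio of the sum was 0.74. In other classes it was 0.31 in monocytes, 0.005 (-0.002 to 0.012) in conventional DCs, -0.11 in pDCs and -0.23 in red pulp macrophages. The sign changed under 7 of the planned settings in dividing neutrophils, under 3 each in conventional DCs and pDCs, under 2 in red pulp macrophages and under 1 in erythroid cells. That in red pulp macrophages became 0.06 under median-of-ratios scaling and 0.17 when each cell weighed the same, and with cells thinned to 1000 UMIs the shares were 4.65% in wild-type and 5.41% in SCD.

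When neutrophils were ordered without using the stage names, by the share of their late-stage UMIs, and cut into 5 equal parts, the share of the nuclear genes went down to the third part and up again in both libraries. From the earliest to the latest part the summed share was 1.34%, 1.07%, 0.898%, 1.18% and 1.27% in wild-type and 1.39%, 1.14%, 0.862%, 1.17% and 1.29% in SCD. The intervals of the 2 libraries did not overlap in the first 3 parts, with SCD higher in the first 2 and lower in the third, and overlapped in the last 2. Per-gene medians of SCD over wild-type in these parts were 0.04, 0.07, -0.02, -0.01 and -0.005. The mt- share in contrast was 0.852%, 0.597%, 0.281%, 0.291% and 0.257% in wild-type and 0.974%, 0.676%, 0.343%, 0.449% and 0.388% in SCD, with log2 ratios of 0.19, 0.18, 0.29, 0.63 and 0.59. The parts held 240, 257, 354, 1451 and 2059 wild-type cells and 2065, 2048, 1951, 854 and 245 SCD cells.

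**Figure D4:**
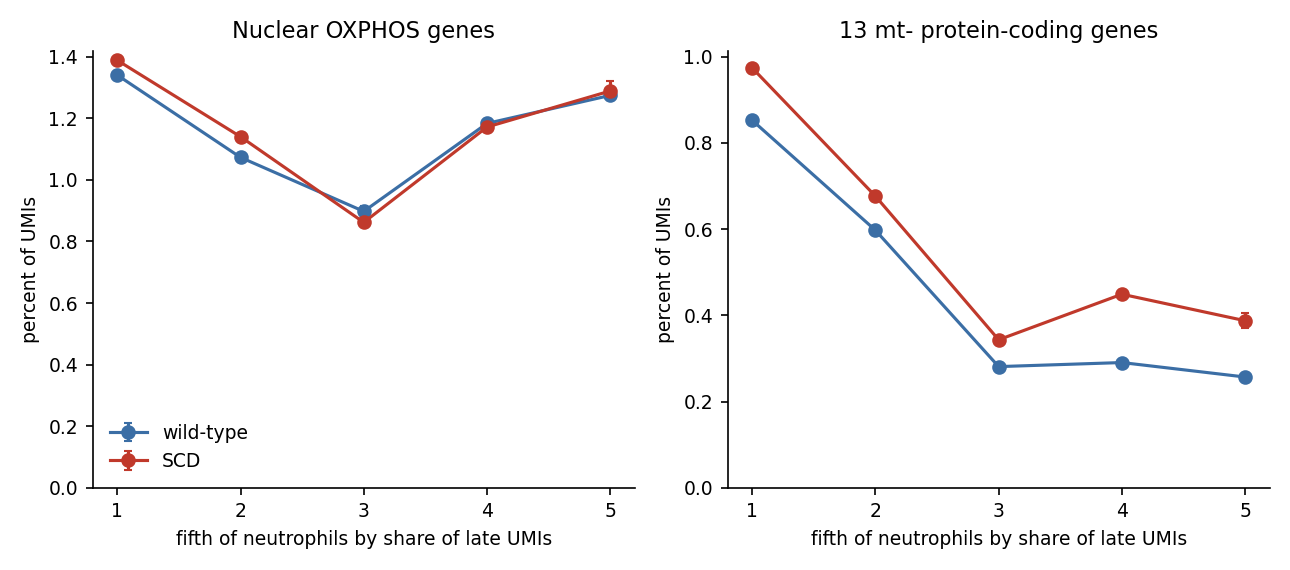
Summed nuclear OXPHOS genes (left) and mt- genes (right) as percent of UMIs in 5 equal parts of the neutrophils ordered by the share of late-stage UMIs, 1 line per library with exact 95% Poisson intervals. The nuclear curves of both libraries dip in the third part to 0.898% and 0.862%, and the mt- curve of SCD stays above that of wild-type in all 5 parts.

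The change from immature to mature neutrophils was followed for each gene within a library, with stages drawn from clusters of both libraries together. In wild-type the median over 58 expressed genes was 0.09 (-0.11 to 0.29) against 0.65 over all genes, and -0.58 under median-of-ratios scaling. In SCD it was -0.26 (-0.33 to -0.03) against 0.36, and -0.615 under that scaling. The signs also depended on how the stages were drawn: with stages by the larger of late and earlier UMIs the medians were -0.26 in wild-type and -0.415 in SCD, and with the second and the fifth of 5 equal parts the SCD median was 0.032. Relative to the bulk of genes the OXPHOS genes lay 0.56 and 0.61 lower. In wild-type 10 were at least 1.5-fold lower in mature cells, where 13.7% of all genes were, and 10 were higher, where 53.9% were. In SCD 13 were lower, where 12.6% of all genes were, and 3 were higher, where 37.8% were.

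Single subunits of the same complex went in opposite ways. Ndufv3, an accessory subunit beside the NADH-binding module of complex I, was at 185 CPM in immature and 32.7 CPM in mature wild-type neutrophils (-2.33), and at 183 and 59.2 CPM in SCD (-1.55). Ndufa11, in the membrane arm, was at 64.8 and 12.0 CPM (-2.03) in wild-type and 66.5 and 19.3 CPM (-1.56) in SCD. In contrast Ndufa7, another accessory subunit of complex I, was at 151 and 374 CPM (1.28) in wild-type and 143 and 225 CPM (0.63) in SCD. Uqcrb was lower in mature cells in both (93.2 and 28.0 CPM, -1.57; 95.7 and 34.5 CPM, -1.35), as were Ndufs4 (-1.52 and -1.06) and Ndufc1 (-1.06 and -1.07). Sdhd was higher (52.0 and 114 CPM, 1.07, in wild-type and 49.3 and 93.1 CPM, 0.85, in SCD), as were Atp5l (1.03 and 0.67) and, in wild-type, Sdha at 35.5 and 78.6 CPM (1.04). In SCD Sdha was just under the expression limit, at 31.0 and 49.8 CPM (0.61).

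The order of the genes was close to the same in both mice. Of the 56 genes expressed in both comparisons, the 5 lowest were the same 5, and 2 of the 3 highest were shared (Ndufa7 and Sdhd). In all, 43 had the same direction and 13 the opposite, 8 were lower and 3 higher past 1.5-fold in both, and Pearson's r across the 56 genes was 0.943. Over all 2279 genes expressed in both comparisons r was 0.954. Of those 2279, 90.9% had the same direction against 76.8% of the 56, 11% were lower in both against 14.3%, and 36.7% higher in both against 5.36%. Genes are not independent replicates, and this is a description of 2 animals.

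**Figure D5:**
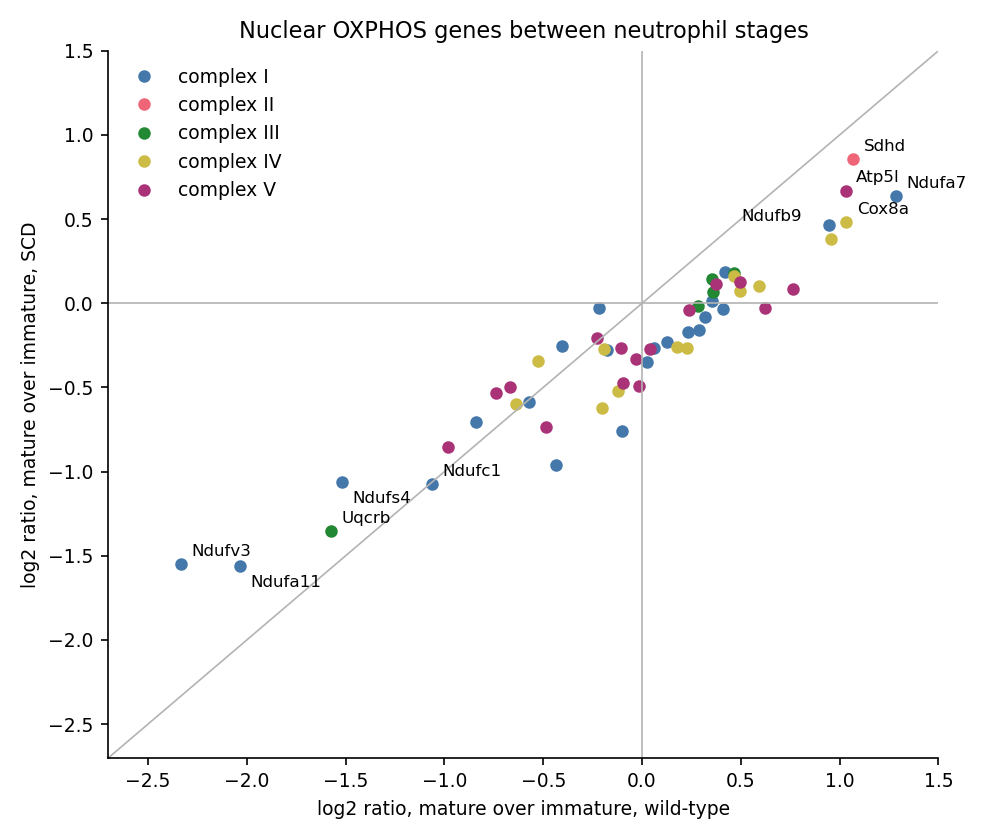
Log2 ratio of mature over immature neutrophils of each nuclear OXPHOS gene in wild-type (horizontal axis) and in SCD (vertical axis), 1 point per gene, coloured by complex, with a diagonal where both are equal. The points run along 1 line from Ndufv3 (-2.33 and -1.55) to Ndufa7 (1.28 and 0.63), with an r of 0.943 across the 56 genes expressed in both.

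Set against dividing neutrophils, the medians of the nuclear OXPHOS genes were below 0 in immature and in mature cells of both libraries. From dividing to immature cells the median over the expressed genes was -0.54 in wild-type (71 genes, 34 of them at least 1.5-fold lower and 1 higher, where 32% of all genes were lower and 23.2% higher) and -0.50 in SCD (69 genes, 26 lower and none higher, where 27.6% and 22.3% were), against all-gene medians of -0.06 and -0.01. From dividing to mature cells it was -0.64 (37 lower and 5 higher of 71, where 26.9% and 48% of all genes were) and -0.76 (45 lower and 3 higher of 70, where 30.2% and 41.7% were), against 0.50 and 0.28 over all genes. The wild-type values rest on 64 dividing cells.

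Nuclear OXPHOS promoters are known to carry sites of NRF1, of ETS factors such as GABPA, and of YY1, so the 300 bases from 250 before to 50 after the annotated start were searched on both strands, in the RefSeq table on GRCm38.p6, which held 76 of the 95 symbols. The letters GCGCANGCG (NRF1) occurred in 23 of the 76 (30.3%) against 7.03% of all 27025 genes of the table, CCGGAAG (ETS, which GABPA binds) in 19 (25.0%) against 9.93%, and ANATGGCG (YY1) in 16 (21.1%) against 4.23%. Of the 32851 promoters of the table, counted singly, 6.25%, 8.86% and 3.65% held them. A match describes letters, not binding. The promoters of the pair lowest in mature over immature wild-type neutrophils (Ndufv3 and Ndufa11) and of the pair highest (Ndufa7 and Sdhd) are shown to set genes that moved apart beside each other, 5′ to 3′ on the gene's strand, with matches in capitals.
Ndufv3, chr17:31519865-31520164, plus strand: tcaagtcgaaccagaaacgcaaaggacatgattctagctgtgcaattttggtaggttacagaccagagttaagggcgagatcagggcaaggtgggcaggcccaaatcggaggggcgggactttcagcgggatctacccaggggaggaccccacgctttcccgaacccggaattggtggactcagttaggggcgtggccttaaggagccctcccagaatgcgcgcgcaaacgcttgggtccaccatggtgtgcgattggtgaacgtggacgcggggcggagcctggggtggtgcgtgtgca
Ndufa11, chr17:56717512-56717811, plus strand: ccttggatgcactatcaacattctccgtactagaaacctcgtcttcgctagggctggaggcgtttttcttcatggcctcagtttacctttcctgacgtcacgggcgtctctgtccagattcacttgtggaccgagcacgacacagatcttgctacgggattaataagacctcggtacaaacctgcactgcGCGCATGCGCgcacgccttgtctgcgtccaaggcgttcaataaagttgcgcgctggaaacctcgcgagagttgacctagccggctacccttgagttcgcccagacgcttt
Ndufa7, chr17:33824322-33824621, plus strand: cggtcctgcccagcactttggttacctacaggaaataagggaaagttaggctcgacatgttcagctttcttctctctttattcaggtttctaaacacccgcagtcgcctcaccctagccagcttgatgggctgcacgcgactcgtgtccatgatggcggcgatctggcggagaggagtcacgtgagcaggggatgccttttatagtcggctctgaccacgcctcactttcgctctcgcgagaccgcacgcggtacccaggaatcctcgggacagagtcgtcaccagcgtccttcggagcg
Sdhd, chr9:50603800-50604099, minus strand: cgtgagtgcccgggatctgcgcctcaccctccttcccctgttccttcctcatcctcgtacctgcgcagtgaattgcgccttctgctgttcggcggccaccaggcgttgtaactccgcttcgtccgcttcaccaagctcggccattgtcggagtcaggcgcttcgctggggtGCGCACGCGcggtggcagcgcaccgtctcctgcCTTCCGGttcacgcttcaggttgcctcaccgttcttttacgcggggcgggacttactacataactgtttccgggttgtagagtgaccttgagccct
Ndufa11 holds 1 palindromic NRF1 site, matched on both strands from bases 191 and 192 of the window. Sdhd holds an NRF1 match at base 172 and an ETS match on the other strand at base 205. Ndufv3 and Ndufa7, at opposite ends of the order, hold none of these letters in the windows printed, while the window of a second annotated Ndufa7 start, chr17:33824395-33824694, holds 1 YY1 match. So neither the pair that was lower nor the pair that was higher shared a motif in these windows.

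Other mitochondrial and metabolic lists were read in the same way, beside the shares of all expressed genes past 1.5-fold: 16.1% lower and 6.84% higher in monocytes, 12.7% and 4.2% in conventional DCs, 3.14% and 4.18% in pDCs, and 27.1% and 8.82% in red pulp macrophages. In monocytes the median of 40 expressed genes of the mitochondrial ribosome (Mrpl and Mrps) was 0.38 with 6 (15%) at least 1.5-fold higher, beside 0.38 and 7.5% for the OXPHOS genes, that of 12 genes of the tricarboxylic acid cycle 0.24 (2 higher), of 13 glycolytic genes 0.46 (3 lower and 3 higher), and of 81 cytosolic ribosomal protein genes 0.16 (3 higher). Outside the symbol rule, 12 expressed assembly factors and Cyc1 gave 0.21 (2 higher) and 8 carriers, such as the ADP/ATP translocases, 0.23 (2 higher). In conventional DCs glycolysis was at 0.51 (2 lower and 5 higher of 12), mitochondrial ribosome at 0.16 and the tricarboxylic acid cycle at -0.06. In pDCs these were 0.40 (3 higher of 11), 0.10 and 0.13, and in red pulp macrophages 0.38 (2 lower and 5 higher of 13), 0.20 and -0.15. The regulators of mitochondrial genes, such as Nrf1, Gabpa, Tfam and Ppargc1a, were mostly below the expression limit, with 2 of 16 expressed in monocytes (median -0.19) and 3 of 16 in red pulp macrophages (-0.40).

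In mature neutrophils glycolysis stood apart from the OXPHOS genes, with a median of 0.43 over 13 genes (4 higher and none lower), while ribosomal proteins were at -0.37 (12 lower and 1 higher of 75) and carriers at -0.54 (2 lower of 5), where 27.1% of all genes were lower and 4.45% higher. From immature to mature cells, glycolytic genes were at -0.75 in wild-type (8 lower and 3 higher of 14) and -0.21 in SCD (3 lower and 3 higher), against all-gene medians of 0.65 and 0.36, and the mt- genes at -0.75 (7 of 9 lower) and -0.41 (2 of 9 lower). Ribosomal proteins were at 0.51 (1 lower and 32 higher of 75) and -0.01 (4 higher). Of all genes, 13.7% were lower and 53.9% higher in wild-type, and 12.6% and 37.8% in SCD.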

How the data were processed

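Spleen suspensions enriched for DCs from 1 wild-type and 1 SCD mouse were analysed. The authors aligned reads and counted UMIs with Cell Ranger (version 4.0.0; the submitters' processing notes also name GRCm38.p6, Scanpy 1.6.0, Seurat 3.2.3 and R 4.4), and deposited 1 matrix per library of raw UMI counts, not normalized. All 96 identifiers were found in GENCODE M21 (GRCm38).

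Cells with 500 to 5000 genes, under 15% mitochondrial and under 30% ribosomal UMIs were kept, following the study's methods. Genes in at least 20 cells entered clustering: scran 1.30.0 size factors (R 4.3.3), 30 principal components on 2000 variable genes with the OXPHOS and mt- genes left out, 15 neighbours and Leiden resolution 1 (scanpy 1.11.5, leidenalg 0.10.2, igraph 0.11.9, scikit-learn 1.9.0, pandas 2.3.3, scipy 1.17.1, numpy 2.4.6, matplotlib 3.10.9, Python 3.11.15). Both libraries were clustered together without batch correction, and neutrophils again for stages. A cluster took the name of the class with the highest mean of its 8 best markers, with a margin of 0.05. This rule was set after clusters had been seen, and 2 of them stayed unnamed. For stages the margin was waived between the promyelocyte-like and dividing lists, on which the promyelocyte-like cluster scored 1 and 0.959. A neutrophil sub-cluster led by Cd74 and H2-Aa (41 wild-type and 25 SCD cells) also stayed unnamed and entered only pooled neutrophils. Scrublet marked 357 wild-type (3.79%) and 205 SCD cells (1.93%) as doublets, which were kept in the main analysis.

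UMIs were summed per class and library. Classes with at least 50 cells in both libraries were compared. Expressed meant at least 50 CPM and 20 UMIs in 1 library, and log2 ratios used a pseudocount of 5 CPM. Counts have exact Poisson and shares of cells exact (Clopper-Pearson) 95% intervals; those of medians are order-statistic intervals over genes. The ratio script was checked on simulated data. The genes and lists were chosen with earlier results of these data known. Genes named in the text were the 2 most abundant per complex and Cycs, the isoform sets of complex IV, the 3 highest and 3 lowest ratios in each main class, and the 5 lowest and 3 highest ratios of mature over immature neutrophils; others are named where a count of 5 or fewer or a single value called for it. The alternatives changed pseudocount, expression limit, scaling, cell filters, doublets, clustering and stages.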

Additional observations from a re-analysis of the deposited data

Results flagged for a closer look

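The median log2 ratio (SCD over wild-type) of the nuclear OXPHOS genes was -0.29 in mature neutrophils and 0.38 in monocytes, in opposite directions, and the difference was not tested. Mature neutrophils gave 0.08 under median-of-ratios scaling. From immature to mature neutrophils the median was 0.09 in the wild-type and -0.26 in the SCD library, again in opposite directions and not tested, and the wild-type interval spans 0 (-0.11 to 0.29). Both were below 0 under median-of-ratios scaling (-0.58 and -0.615), without the 50 highest genes (-0.58 and -0.59) and with stages by the larger of late and earlier UMIs (-0.26 and -0.415). Relative to all genes the 2 libraries lay at -0.56 and -0.61.

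The summed mt- genes had a log2 ratio of 0.74 in neutrophils and -0.23 in red pulp macrophages, and this difference was not tested either. The neutrophil value pools the stages, and immature cells gave 0.04. The macrophage value became 0.06 under median-of-ratios scaling and 0.17 when each cell weighed the same, and with cells thinned to 1000 UMIs the macrophage shares were 4.65% in wild-type and 5.41% in SCD.

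Cells with more than 5000 detected genes are outside the main comparisons and entered only the alternative with no upper limit on genes. The wild-type library held 295 and the SCD library 1220, with medians of 56187 and 50433 UMIs. The nuclear OXPHOS genes took 3.32% of their UMIs in wild-type and 3.35% in SCD, above every class of the kept cells, and the mt- genes 3.73% and 3.05%. Their classes were not compared on their own.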

How the results depend on the processing

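All values compare 1 animal with 1, so none has a replicate check, and no library could be left out. No paired analysis was possible because wild-type and SCD were 1 mouse each. Of 161 planned medians, 114 stayed within the interval of the main value and 47 did not; 14 changed sign: 1 in pooled, 2 in dividing, 2 in immature and 2 in mature neutrophils, 2 in erythroid cells, and 4 in wild-type and 1 in SCD for mature over immature. Of the counts 217 stayed within 1.5 times and 41 did not. Of 102 mt- ratios 37 stayed within the interval and 16 changed sign: 7 in dividing neutrophils, 3 in conventional DCs, 3 in pDCs, 2 in red pulp macrophages and 1 in erythroid cells. Of the shares 33 stayed and 93 moved. With at least 1000 genes per cell erythroid cells fell under 50 and gave no value. The values outside these limits are given below, ratios on the log2 scale (SCD over wild-type), with mt- sums for the ratio of the summed mt- genes and lower or higher for at least 1.5-fold beside the share of all expressed genes in the same setting (in brackets), and the cause was not tested. Under median-of-ratios scaling, the median was 0.53 in neutrophils, 0.053 in dividing neutrophils, 0.087 in immature neutrophils, 0.078 in mature neutrophils, 0.48 in monocytes, 0.29 in conventional DCs, 0.16 in pDCs, 0.59 in macrophages and 0.585 in erythroid cells. Genes lower numbered 0 in neutrophils (20.4%), 0 in mature neutrophils (7.59%) and 3 in erythroid cells (30.03%). Genes higher numbered 27 in neutrophils (20.4%), 3 in mature neutrophils (9.94%), 23 in monocytes (9.503%), 1 in conventional DCs (6.201%), 39 in macrophages (16.9%) and 40 in erythroid cells (29.01%). Mt- sums gave 1.14 in neutrophils, 0.081 in dividing neutrophils, 0.105 in immature neutrophils, 0.94 in mature neutrophils, 0.41 in monocytes, 0.11 in conventional DCs, -0.074 in pDCs, 0.056 in macrophages and 0.014 in erythroid cells. Mature over immature gave -0.58 in wild-type and -0.615 in SCD. With totals that leave out the 50 highest genes, the median was 0.505 in neutrophils, 0.022 in dividing neutrophils, 0.058 in immature neutrophils, 0.076 in mature neutrophils, 0.42 in monocytes, 0.245 in conventional DCs, 0.46 in macrophages and 0.88 in erythroid cells. Genes lower numbered 0 in neutrophils (18.4%), 0 in mature neutrophils (8.84%) and 1 in erythroid cells (21.6%). Genes higher numbered 32 in neutrophils (21.5%), 5 in mature neutrophils (9.84%), 11 in monocytes (7.36%) and 29 in macrophages (13.8%). Mt- sums gave 1.10 in neutrophils, 0.051 in dividing neutrophils, 0.075 in immature neutrophils, 0.89 in mature neutrophils, 0.34 in monocytes, 0.067 in conventional DCs, -0.105 in pDCs, -0.078 in macrophages and 0.31 in erythroid cells. Mature over immature gave -0.58 in wild-type and -0.59 in SCD. With a pseudocount of 20 CPM, the median was 1.40 in erythroid cells. Genes lower numbered 1 in neutrophils (32.03%) and 2 in mature neutrophils (20.3%). Genes higher numbered 2 in monocytes (5.79%). With no CPM minimum, the median was -0.195 in mature neutrophils. Genes higher numbered 8 in neutrophils (4.63%), 1 in dividing neutrophils (2.17%), 2 in mature neutrophils (3.76%), 1 in conventional DCs (3.57%) and 1 in pDCs (6.14%). With at least 1000 genes per cell, the median was -0.44 in mature neutrophils. Genes lower numbered 12 in mature neutrophils (40.7%) and 1 in macrophages (32.3%). Genes higher numbered 0 in neutrophils (3.85%). Mt- sums gave 0.55 in neutrophils, -0.057 in dividing neutrophils, 0.007 in immature neutrophils, 0.46 in mature neutrophils, 0.33 in monocytes and -0.32 in macrophages. Mature over immature gave -0.37 in SCD. When each cell weighed the same, the median was -0.20 in mature neutrophils and 1.23 in erythroid cells. Genes lower numbered 2 in mature neutrophils (16.6%) and 1 in macrophages (24.1%). Mt- sums gave 0.87 in neutrophils, 0.11 in dividing neutrophils, 0.59 in mature neutrophils, 0.32 in monocytes, 0.049 in conventional DCs, -0.078 in pDCs, 0.17 in macrophages and 0.52 in erythroid cells. With no upper limit on genes, the median was 0.47 in monocytes, 0.10 in conventional DCs, 0.032 in pDCs and -0.010 in erythroid cells. Genes lower numbered 3 in mature neutrophils (24.5%). Genes higher numbered 24 in monocytes (13.2%) and 0 in erythroid cells (1.27%). Mt- sums gave 0.66 in neutrophils, 0.49 in mature neutrophils, -0.015 in conventional DCs, 0.024 in pDCs, -0.14 in macrophages and -0.38 in erythroid cells. With no mitochondrial or ribosomal filter, the median was 0.16 in conventional DCs, 0.054 in pDCs and -0.078 in erythroid cells. Genes higher numbered 0 in erythroid cells (8.65%). Mt- sums gave 0.70 in neutrophils, 0.066 in dividing neutrophils, 0.45 in mature neutrophils, 0.32 in monocytes, 0.029 in pDCs and -0.28 in macrophages. Without called doublets, the median was -0.17 in mature neutrophils, 0.093 in conventional DCs and 0.037 in pDCs. Genes lower numbered 0 in mature neutrophils (13.3%). Genes higher numbered 0 in mature neutrophils (3.76%). Mt- sums gave 0.026 in dividing neutrophils, 0.295 in monocytes, -0.024 in conventional DCs and 0.013 in pDCs. With total count normalization before clustering, the median was 0.096 in conventional DCs and 0.037 in pDCs. Mt- sums gave 0.013 in dividing neutrophils, 0.49 in mature neutrophils, 0.30 in monocytes, -0.008 in conventional DCs, -0.061 in pDCs and -0.26 in macrophages. With OXPHOS and mt- genes in the clustering, the median was 0.225 in conventional DCs and 0.042 in pDCs. Genes higher numbered 2 in conventional DCs (5.68%). Mt- sums gave 0.011 in dividing neutrophils, 0.44 in mature neutrophils, 0.078 in conventional DCs and -0.072 in pDCs. With stages taken as the second and the fifth of 5 equal parts by late UMIs, the median was 0.070 in immature neutrophils and -0.005 in mature neutrophils. Genes lower numbered 1 in mature neutrophils (7.403%). Genes higher numbered 2 in immature neutrophils (1.23%) and 2 in mature neutrophils (3.98%). Mt- sums gave 0.18 in immature neutrophils and 0.59 in mature neutrophils. Mature over immature gave 0.032 in SCD. With stages by the larger of late and earlier UMIs, the median was 0.063 in immature neutrophils. Genes lower numbered 2 in mature neutrophils (20.7%). Genes higher numbered 0 in mature neutrophils (3.85%). Mt- sums gave 0.20 in immature neutrophils and 0.42 in mature neutrophils. Mature over immature gave -0.26 in wild-type and -0.415 in SCD. At Leiden resolution 2, the mt- ratio was 0.51 in mature neutrophils and 0.325 in monocytes. With totals that leave out mt- genes, the mt- ratio was 0.315 in monocytes. With cells thinned to 1000 UMIs, the summed share was 1.22% (wild-type) and 1.12% (SCD) in neutrophils, 1.42% (wild-type) and 1.44% (SCD) in dividing neutrophils, 1.02% (wild-type) and 1.04% (SCD) in immature neutrophils, 1.23% (wild-type) and 1.07% (SCD) in mature neutrophils, 2.07% (wild-type) and 2.70% (SCD) in monocytes, 1.76% (wild-type) and 2.01% (SCD) in conventional DCs, 2.15% (wild-type) in pDCs, 1.91% (wild-type) and 2.42% (SCD) in macrophages, 0.814% (wild-type) and 1.70% (SCD) in erythroid cells.

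The comparison within clusters was added after seeing the data. Within mature neutrophils, sub-cluster 0 gave a median of 0.035, 0 lower (1.77%), 2 higher (3.997%) and an mt- ratio of 0.96, sub-cluster 4 gave a median of 0.094, 0 lower (4.203%), 2 higher (6.82%) and an mt- ratio of 0.22, sub-cluster 6 gave a median of -0.30, 7 lower (35.9%), 2 higher (6.22%) and an mt- ratio of 0.36. Within monocytes, cluster 2 gave a median of 0.27, 0 lower (6.86%), 1 higher (2.34%) and an mt- ratio of 0.28, cluster 12 gave a median of 0.073, 0 lower (2.73%), 0 higher (1.33%) and an mt- ratio of 0.074, cluster 13 gave a median of -0.013, 0 lower (7.82%), 0 higher (6.38%) and an mt- ratio of -0.057. Within conventional DCs, cluster 1 gave a median of 0.15, 0 lower (1.71%), 0 higher (0.853%) and an mt- ratio of 0.063, cluster 11 gave a median of 0.083, 1 lower (9.32%), 2 higher (6.45%) and an mt- ratio of -0.12, cluster 15 gave a median of 0.22, 0 lower (6.11%), 0 higher (2.41%) and an mt- ratio of 0.025, cluster 16 gave a median of -0.095, 0 lower (1.72%), 0 higher (1.85%) and an mt- ratio of 0.073. Within pDCs, cluster 9 gave a median of 0.038, 0 lower (0.875%), 0 higher (0.583%) and an mt- ratio of 0.021, cluster 18 gave a median of 0.24, 0 lower (13.9%), 3 higher (9.38%) and an mt- ratio of -0.13. Depth limits red pulp macrophages most, with medians of 1386 and 1656 UMIs per cell.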

Other observations

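Ndufc2, a complex I subunit of the membrane arm, was chosen after its values were seen for its low level in later neutrophils. It was at 148 and 219 CPM in monocytes, 155 and 156 in red pulp macrophages, 147 and 160 in conventional DCs, 119 and 128 in pDCs, 28.9 and 128 in erythroid cells, 102 and 107 in promyelocyte-like cells, 74.8 and 75.1 in dividing, 29.7 and 28.3 in immature and 8.75 and 15.3 CPM in mature neutrophils.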
